A study of Mus musculus with 3 samples.

Results

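Macrophage genes were examined in endothelial cells sorted from the embryonic mouse kidney at 15.5 days post coitum (Theiler stage 23). The set holds 42 genes of 19938 named on the array. They were chosen by their log2 signals in these same arrays, because many of them were higher in the third one than in the first. They were then found by symbol, each through the 1 probe set that the platform annotation gives to that symbol alone. Adgre1 also stands in the set under its older name Emr1. Differences between the arrays therefore chose the genes and are given as a description, without a test.

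All 3 samples belong to a single group. Each was a pool of 4 to 5 kidneys from embryos of Tie2-GFP transgenic mice on the CD-1 strain, dissociated with trypsin and sorted for green fluorescence, and its RNA was amplified in 1 round and hybridized to an Affymetrix Mouse Gene ST array. In these mice GFP is under control of the Tek (Tie2) promoter. Tek encodes a receptor for angiopoietins that marks endothelium, and the promoter is also known to be active in blood-forming cells and in some monocytes and macrophages. The replicates are called arrays 1, 2 and 3 below, as numbered in the labels, and the numbers carry no order in time or dose. The study describes its samples as independent biological samples, but whether different litters contributed to each pool is not stated, so the spread given here is the spread between these arrays.

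Macrophages are phagocytes that take up dead cells, pathogens and debris. In the embryo they first arise from yolk sac and fetal liver progenitors, settle in organs including the kidney, and depend on the receptor Csf1r and the transcription factor PU.1, encoded by Spi1. Their surface carries Fc receptors and the adaptors that signal for them, scavenger receptors and sensors of nucleotides and protons, and they secrete the complement component C1q and lysozyme.

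Macrophage and endothelial genes differed in opposite directions between arrays 3 and 1. Of the 42 macrophage genes, 38 were higher in array 3 than in array 1 and 4 were equal, where 40.4% of all named genes were higher. None was lower, where 31.6% of all genes were. In 27 of the 42 array 1 was the lowest and array 3 the highest without ties, against 9.12% of all genes. All 22 measured pan-endothelial genes were lower in array 3 than in array 1, with a median difference of -0.997 log2, and among them Tek measured 11.12, 10.97 and 10.13 log2 in arrays 1, 2 and 3. All named genes with a mean of 8 to 9 log2 had a median difference of -0.373 log2 between these arrays, and those of 9 to 10 log2 one of -0.429. A lower value in array 3 was thus not particular to endothelial genes, although their median difference was larger than that of either band. The bands do not cover every endothelial gene, and Tek, with a mean of 10.74 log2, lay above both. In RNA of a sorted pool, fewer cells of a type and less RNA per cell cannot be told apart.

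The arrays differed as a whole as well. Array 3 had the narrowest spread of probe set values, with an SD of 1.84 log2 against 2.08 and 2.06 in arrays 1 and 2, and its correlation across probe sets was 0.923 with array 1 and 0.927 with array 2, where arrays 1 and 2 reached 0.976 (Pearson, probe sets are not independent replicates). Olfactory and vomeronasal receptor genes, 1178 in all and taken as background, had medians of 4.68, 4.71 and 5.08 log2. Genes at low levels were in general higher in array 3: 62.2% of genes with a mean under 100 were, against 19.2% of genes with a mean of at least 100. The part of this narrower spread in the values below was not tested. Exactly equal values in at least 2 arrays were found for 69.6% of named genes and for 11 of the 42 macrophage genes, in arrays 1 and 2 for 63.5% and 9, and in all 3 arrays for 25.6% and 2. Many probe sets also shared an exact value within an array (44.1%, 45.4% and 29.1% of them in arrays 1, 2 and 3). Why values are equal is not stated, so an exact tie is not read as an absence of difference. The array 1 values of Adgre1, Cd14, Spi1 and Marco were shared by 46, 54, 40 and 43 other probe sets. The size of their difference from array 1 is therefore uncertain. In array 2 the values of Ly86, Mpeg1, C1qb, Aif1, Cd84 and Fcgr2b were shared by 14, 11, 11, 6, 46 and 60 others. Differences that involve those array 2 values are uncertain in the same way.

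**Figure D1:**
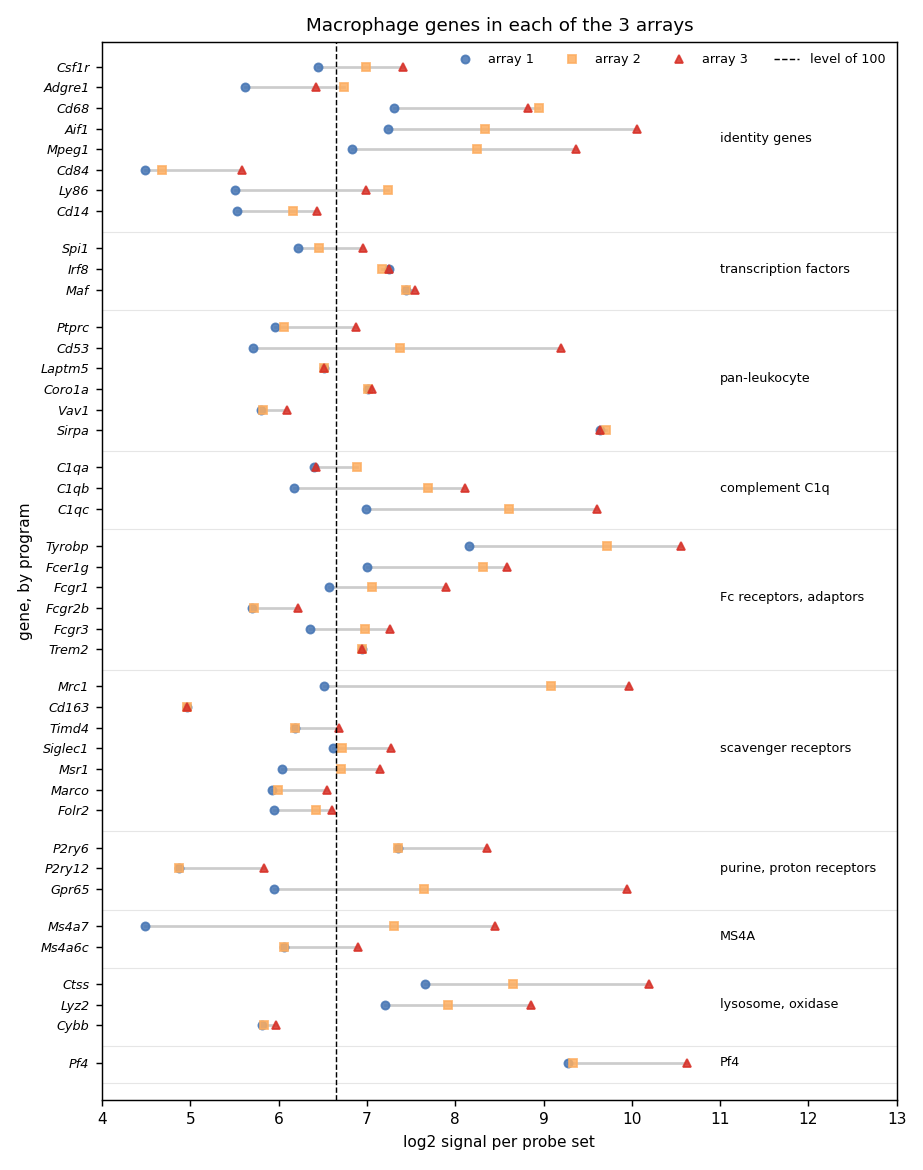
Log2 signal of each macrophage gene (rows, by program) in arrays 1 (circle), 2 (square) and 3 (triangle), with the level of 100 as a dashed line and a grey bar over the range. The triangle is the rightmost point in 34 of 42 genes, and Laptm5 and Cd163 have a single value in all 3 arrays.

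The promoters of the set are shown for the genes that carried a PU.1-type element, since PU.1 is the best known regulator of macrophage genes and the set holds genes with large and with small differences between arrays. The motif GAGGAAGT was searched on both strands in windows from 250 bases before to 50 bases after the annotated start (RefSeq, GRCm38.p6). Windows were given for 31 of the 42 genes, 37 windows in all, and 5 of these genes held the motif, in 1 window each. It was found in 3.2% of all 32851 windows. In Ctss, Pf4, Vav1 and Cd53 the first base of the motif lay within 11 bases of the annotated start. In C1qc the first base was at position -195 from the start. The capitals below mark the motif, which reads ACTTCCTC where it is on the strand opposite to the gene, and each stretch runs 5′ to 3′ on the strand of the gene.
Ctss (chr3:95526666-95526815, + strand): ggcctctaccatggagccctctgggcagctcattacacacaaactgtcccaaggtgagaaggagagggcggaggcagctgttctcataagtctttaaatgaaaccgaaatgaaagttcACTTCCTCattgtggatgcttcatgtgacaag
Cd53 (chr3:106790120-106790269, - strand): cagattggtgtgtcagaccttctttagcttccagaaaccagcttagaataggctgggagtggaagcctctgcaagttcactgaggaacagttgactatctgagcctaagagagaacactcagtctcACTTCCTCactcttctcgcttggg
C1qc (chr4:136893015-136893164, - strand): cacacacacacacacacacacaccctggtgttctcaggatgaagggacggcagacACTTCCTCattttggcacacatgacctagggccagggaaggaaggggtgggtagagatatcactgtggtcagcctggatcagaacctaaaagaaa
Pf4 (chr5:90772315-90772464, + strand): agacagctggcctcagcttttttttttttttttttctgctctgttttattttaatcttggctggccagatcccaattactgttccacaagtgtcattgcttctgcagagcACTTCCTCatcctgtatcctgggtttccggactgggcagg
Vav1 (chr17:57278980-57279129, + strand): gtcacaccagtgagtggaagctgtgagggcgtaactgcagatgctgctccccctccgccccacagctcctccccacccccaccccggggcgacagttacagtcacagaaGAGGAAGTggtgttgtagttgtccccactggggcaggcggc
Of these 5 genes, Cd53, C1qc, Ctss and Pf4 were at least 1 log2 higher in array 3 than in array 1, and Vav1 differed by 0.29 log2. Gpr65, Ms4a7 and Mrc1, described below, had no match in their windows.

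A difference of at least 1 log2 (2-fold) between arrays 3 and 1 was met by 19 of the 42 genes, all of them higher in array 3, while 2.6% of all named genes were that much higher and 5.7% that much lower. P2ry6 (1.01 log2) lay just inside this size, and Csf1r and P2ry12 (0.97 log2 each) just outside it. Between arrays 2 and 1 the size was passed by 14 genes (0.291% of all genes), and between arrays 3 and 2 by 8 (1.96% of all genes), so array 2 stood above array 1 as well. None was that much lower in either, against 0.371% of all genes for arrays 2 and 1 and 3.98% for arrays 3 and 2. Array 1 was the single lowest in 31 genes (11.6% of all genes), array 3 the single highest in 34 (37.9%) and array 2 in 5 (6.65%), namely Adgre1, Cd68, Ly86, C1qa and Sirpa. The comparison of arrays 2 and 1 does not involve array 3, but the genes were chosen on all 3 arrays. It is therefore a description as well. The median of the 42 genes was 0.94 log2 for array 3 minus array 1, 0.49 for array 3 minus array 2 and 0.48 for array 2 minus array 1, where the median of all genes was 0.00 for each. The counts were also split by mean level. The mean includes the arrays where a gene is high, and 6 of the 16 genes past 1 log2 with a mean of at least 100 were under 100 in array 1 (Ms4a7, Cd53, Gpr65, C1qb, Mrc1 and Fcgr1), so this split is a description only. Among the 24 macrophage genes with a mean of at least 100, 16 passed 1 log2 between arrays 3 and 1 (0.772% of all genes with such a mean), and among the 18 with a lower mean 3 did (4.48%). Between arrays 3 and 2 these counts were 8 (0.426%) and 0 (3.53%), and between arrays 2 and 1 they were 12 (0.396%) and 2 (0.183%). Array 1 was lowest and array 3 highest in 17 of the 24 (3.75%) and 10 of the 18 (14.6%). Of the 31 genes with 3 different values, 18 passed 1 log2 between arrays 3 and 1 (6.06% of all such genes), 7 between arrays 3 and 2 (3.93%) and 14 between arrays 2 and 1 (0.907%), and 27 had array 1 lowest and array 3 highest (30%).

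**Figure D2:**
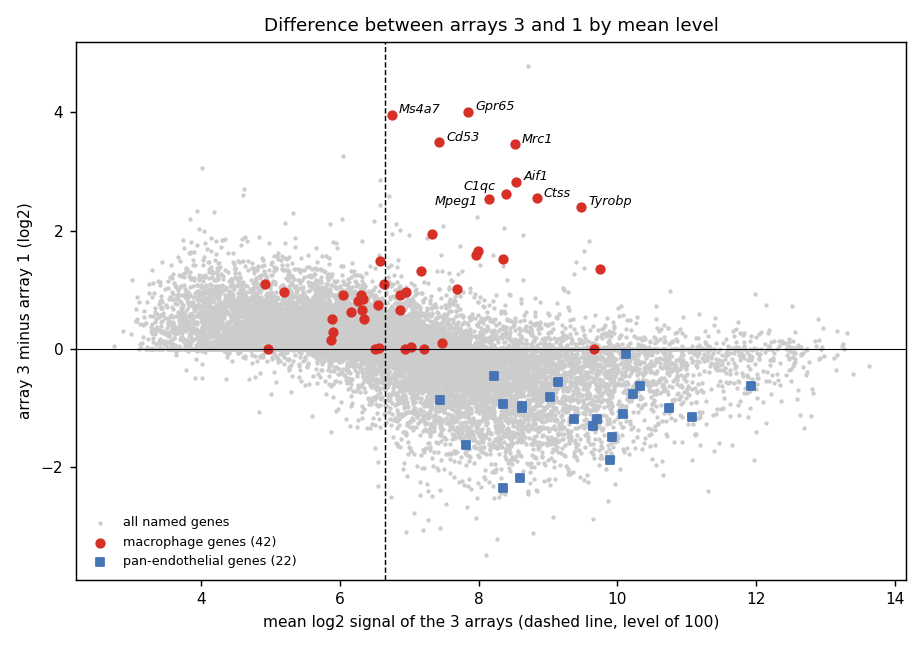
Array 3 minus array 1 (log2, vertical) against the mean log2 signal of the 3 arrays (horizontal) for all named genes (grey), 42 macrophage genes (red circles) and 22 pan-endothelial genes (blue squares). Macrophage genes with a mean of at least 100 reach 4.00 log2 where the bulk of genes lies near or below 0. Those with a mean under 100 reach 1.48 log2. Their median is 0.70, where that of all genes with such a mean is 0.13.

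Genes commonly used to identify macrophages, on the surface or inside the cell, were higher in arrays 2 and 3 than in array 1 in all 8 cases, although not to the same degree. Csf1r, the receptor of the growth factor that keeps macrophages alive, measured 6.45, 6.98 and 7.41 log2 in arrays 1, 2 and 3 (mean 6.95 ± 0.48, SD, n = 3). Adgre1, the F4/80 antigen, measured 5.62, 6.74 and 6.42, and Cd68, a glycoprotein of late endosomes, 7.30, 8.95 and 8.82. Both were thus highest in array 2. Aif1, the calcium-binding protein Iba1, measured 7.24, 8.34 and 10.06 log2, a 7.08-fold difference between arrays 3 and 1. Mpeg1, the pore-forming protein perforin-2, measured 6.83, 8.25 and 9.36 log2. Each of these 5 genes was lowest in array 1, and array 3 was at least 1 log2 above array 2 in Aif1 and Mpeg1. Ly86, partner of a Toll-like receptor homologue, was at 5.51, 7.24 and 6.99 log2, and Cd14, the lipopolysaccharide co-receptor, at 5.53, 6.17 and 6.43. Cd84, an adhesion receptor of the SLAM family, was below 100 in every array at 4.48, 4.68 and 5.58.

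The transcription factors of the set were unequal. Spi1 measured 6.22, 6.46 and 6.96 log2 and so passed 100 (6.64 log2) in array 3 alone. Irf8, a partner of PU.1 in myeloid cells, measured 7.25, 7.17 and 7.25, and Maf, a factor of resident macrophages that other cell types also use, 7.44, 7.44 and 7.55. Irf8 and Maf were over 100 in all arrays, with SDs of 0.05 and 0.06 log2. Between arrays 3 and 1 the difference was 0.74 log2 for Spi1, 0.00 for Irf8 and 0.11 for Maf, and none of the 3 reached 1 log2, as Csf1r, Adgre1 and Cd14 did not.

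The leukocyte genes of the set ranged from a very large difference to an exact tie. Cd53, a tetraspanin of leukocytes, measured 5.71, 7.37 and 9.20 log2, an 11.2-fold difference between arrays 3 and 1 and the fourth largest of all named genes. Ptprc, the phosphatase CD45 that marks nearly all nucleated blood cells, measured 5.96, 6.06 and 6.88. Laptm5, a lysosomal protein of blood cells, had the same deposited value of 6.51 in all arrays, one that 35, 38 and 18 other probe sets shared in arrays 1, 2 and 3. Coro1a, an actin regulator, stayed within 7.02 to 7.05 log2, and Vav1, a signalling protein of blood cells, within 5.81 to 6.09. Sirpa, the receptor for the "do not eat me" signal CD47 that is also found outside the blood lineage, measured 9.64, 9.70 and 9.64. The leukocyte genes thus differed widely among themselves, and 1 of the 6 passed 1 log2.

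The chains of C1q, the recognition molecule of the classical complement pathway, are encoded by 3 neighbouring genes on chromosome 4, and they diverged. C1qc measured 6.99, 8.61 and 9.61 log2 (6.16-fold between arrays 3 and 1) and C1qb 6.17, 7.69 and 8.11 (3.84-fold). C1qa measured 6.40, 6.88 and 6.42 log2, so that it was highest in array 2 and differed by 0.02 between arrays 3 and 1.

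Adaptors of activating receptors were among the clearest genes of the set. Tyrobp (DAP12), which signals for Trem2 and related receptors, measured 8.16, 9.72 and 10.56 log2 and was 5.28-fold higher in array 3 than in array 1. Fcer1g, the common gamma chain of Fc receptors, measured 7.00, 8.31 and 8.59. Both were over 100 in every array, and each was at least 1 log2 higher in array 2 than in array 1. The Fc receptors for IgG were less far apart between arrays 2 and 1, with Fcgr1, of high affinity, at 6.57, 7.06 and 7.89 log2, Fcgr3, of low affinity, at 6.36, 6.97 and 7.27, and the inhibitory Fcgr2b at 5.70, 5.72 and 6.21, the last under 100 in all arrays. Trem2, a lipid-sensing receptor of the same adaptor as above, stayed within 6.94 and 6.95. Its value was exactly equal in arrays 1 and 2, where 25 and 24 other probe sets shared it. This is therefore not a measured lack of difference.

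Scavenger receptors and genes of resident macrophages were led by Mrc1. This mannose receptor, CD206, measured 6.51, 9.08 and 9.97 log2, and was 5.92-fold higher in array 2 and 11-fold higher in array 3 than in array 1. Msr1, the class A scavenger receptor, measured 6.04, 6.71 and 7.14. The other 5 genes were near or under 100. Siglec1, a sialic acid receptor, was at 6.61, 6.72 and 7.27 log2, and Timd4, a receptor for phosphatidylserine on dying cells, at 6.18, 6.18 and 6.68. The scavenger receptor Marco was at 5.93, 5.996 and 6.55 and the folate receptor Folr2 at 5.95, 6.42 and 6.61, both under 100 throughout. Cd163, the haemoglobin scavenger receptor, had a single deposited value of 4.96 log2 in all arrays. In arrays 1, 2 and 3 this exact value was shared by 51, 57 and 13 other probe sets, and it is below 100, so it is not a measured lack of difference.

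Receptors for small molecules and a pair of MS4A genes gave the largest differences of the set in Gpr65 and Ms4a7. Gpr65, a proton-sensing receptor, measured 5.94, 7.65 and 9.95 log2, a 16-fold difference between arrays 3 and 1. Ms4a7, a membrane-spanning protein of macrophages, measured 4.49, 7.30 and 8.45 log2 (15.6-fold). In both, array 1 was under 100 and arrays 2 and 3 were over it. The nucleotide receptor P2ry6 was at 7.35, 7.35 and 8.36, and P2ry12, known from microglia and platelets, at 4.87, 4.87 and 5.83. Ms4a6c was at 6.05, 6.05 and 6.89 log2. In these 3 genes arrays 1 and 2 had exactly equal values and array 3 stood apart. In arrays 1 and 2 the equal value was shared by 17 and 16 other probe sets for P2ry6. For P2ry12 it was shared by 56 and 60, and for Ms4a6c by 53 and 59. The size of their difference from array 3 is therefore uncertain.

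Among genes of the lysosome and the phagocyte, the protease cathepsin S (Ctss) measured 7.65, 8.66 and 10.20 log2 and was 5.84-fold higher in array 3 than in array 1. Lyz2, the lysozyme of macrophages, measured 7.20, 7.92 and 8.86 log2. Its near-identical copy Lyz1 measured 6.94, 7.78 and 7.998 log2 (chosen after its values were seen), and signal of the one cannot be told apart from that of the other. Cybb, the catalytic subunit of the phagocyte NADPH oxidase, stayed under 100 at 5.82, 5.83 and 5.97. Pf4, a chemokine of megakaryocytes and platelets that fetal macrophages are also known to make, measured 9.27, 9.34 and 10.63 log2. The 8 measured genes of a megakaryocyte list had a median difference of 0.00 log2 between arrays 3 and 1. None reached 1 log2, where 2.6% of all genes were that much higher. In 4 of the 8 all 3 arrays had exactly equal values. Itga2b, the platelet integrin, was at 6.81, 6.81 and 7.27, and the glycoprotein genes Gp5 and Gp9 at 6.73, 6.79 and 7.24 and at 6.39, 6.39 and 6.55.

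Taking a step of 0.5 log2, a size chosen after the values were seen, the set fell into 4 patterns. In 10 genes array 2 was a step above array 1 and array 3 a step above array 2 (Aif1, Mpeg1, Cd53, C1qc, Tyrobp, Mrc1, Gpr65, Ms4a7, Ctss and Lyz2), a pattern of 0.216% of all genes. In 9 genes array 2 was a step above array 1, and array 3 was within a step of array 2. These were Csf1r, Adgre1, Cd68, Ly86, Cd14, C1qb, Fcer1g, Fcgr3 and Msr1, a pattern of 0.311% of all genes. In Csf1r, Msr1 and C1qb array 3 was still 0.43, 0.43 and 0.42 log2 above array 2, just under the step. In 11 genes only array 3 was a step higher (Cd84, Spi1, Ptprc, Fcgr1, Timd4, Siglec1, Marco, P2ry6, P2ry12, Ms4a6c and Pf4), as in 10.8% of all genes. In the remaining 12 (Irf8, Maf, Laptm5, Coro1a, Vav1, Sirpa, C1qa, Fcgr2b, Trem2, Cd163, Folr2 and Cybb) neither step was reached, as in 75.2% of all genes. The genes and the step were both chosen on these same values, so the counts beside the shares of all genes are a description only. Over the 19 genes at least 1 log2 apart, array 2 reached a varying share of the linear difference between arrays 1 and 3. It ran from 0% (P2ry6, exactly equal in arrays 1 and 2) to 129% (Ly86). Both ends rest on array 2 values that other probe sets shared, so they are uncertain. The share was 15% in Gpr65, 41.3% in Ms4a7, 49.3% in Mrc1 and 73.9% in Fcer1g. Array 2 thus did not lie at a common proportion of the difference.

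**Figure D3:**
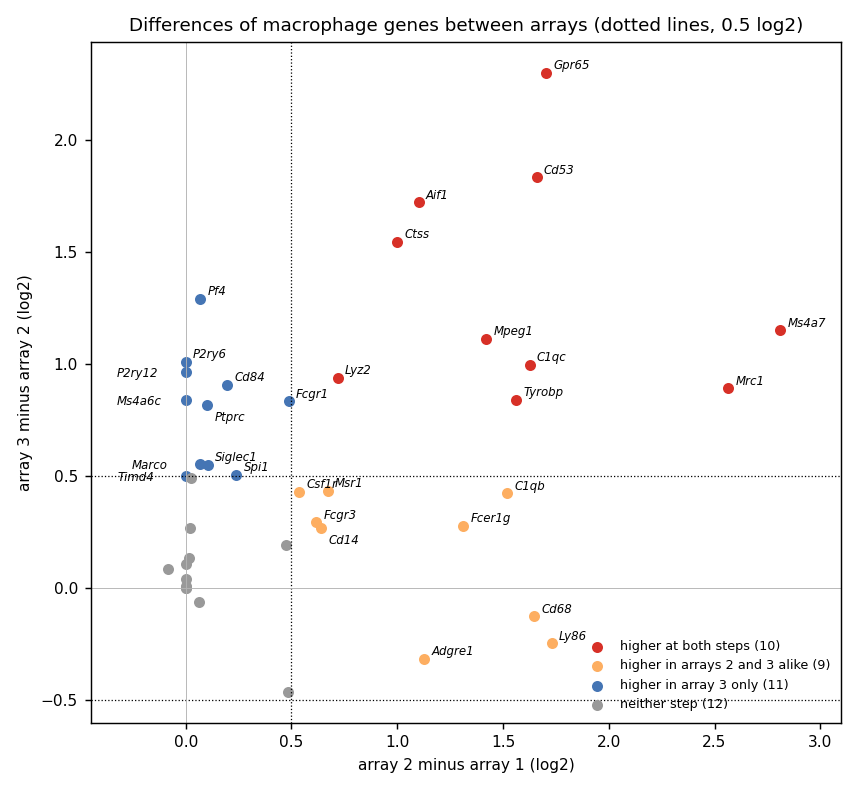
Array 2 minus array 1 (horizontal, log2) and array 3 minus array 2 (vertical, log2) for each of the 42 macrophage genes, coloured by pattern, with dotted lines at 0.5 log2. Gpr65, Cd53, Aif1 and Ctss lie high and to the right, Cd68, Ly86 and Adgre1 lie right and below 0, and P2ry6, P2ry12 and Pf4 lie high near the vertical axis.

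Against the filter level of 100 named by the study, 15 of the 42 genes were at or over it in array 1, 28 in array 2 and 30 in array 3 (50.1%, 50% and 51.3% of all genes). In all 3 arrays 15 were over it (47.9% of all genes) and 10 under it (45.3% of all genes): Cd84, Cd14, Laptm5, Vav1, Fcgr2b, Cd163, Marco, Folr2, P2ry12 and Cybb. The mean over the arrays was tested against the level with limma (one-sided in each direction, Benjamini-Hochberg adjustment over all probe sets). It placed 7 genes above (41.6% of all genes), namely Irf8, Maf, Coro1a, Sirpa, Tyrobp, Trem2 and Pf4, and 7 below (41.6% of all genes), namely Cd84, Laptm5, Vav1, Fcgr2b, Cd163, P2ry12 and Cybb. The remaining 28 were on neither side, against 16.8% of all genes. Calls went with a small spread: 5 of the 7 genes called above ranged over less than 0.2 log2 between arrays, as 8 of the 42 did (47.9% of all genes), whereas Mrc1, Gpr65, Ctss and Aif1, with SDs of 1.79, 2.01, 1.28 and 1.42 log2, were called on neither side. The 5 genes of small range (Irf8, Maf, Coro1a, Sirpa and Trem2) each had exactly equal values in 2 arrays. Laptm5 and Cd163, called below, had them in all 3. Their small spreads thus include ties of unstated origin, so these calls need not rest on variation between replicates. The same arrays chose the genes, so the counts against the level describe them and support nothing further.

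The genes were chosen for being higher in array 3 than in array 1, so a rank by that difference describes the choice and supports nothing. Ms4a7, Cd53, Gpr65 and Mrc1 were under 100 in array 1 and have a mean of at least 100 through the other arrays. Among the 10098 genes with such a mean, of the 10 with the largest difference between arrays 3 and 1, 8 were macrophage genes (Gpr65, Ms4a7, Cd53, Mrc1, Aif1, C1qc, Ctss and Mpeg1). The other 2 were Gch1, an enzyme of tetrahydrobiopterin synthesis, at 7.40, 6.54 and 12.18 log2, and Fyb, an adaptor of leukocytes, at 5.20, 7.15 and 7.78. Gch1 was lower in array 2 than in array 1, which none of the 8 was. Of the 50 leading genes 15 were macrophage genes, and of the 200 leading genes 18.

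Macrophage genes outside the set are given beside the background receptors and all named genes. Of all named genes, 40.4% were higher in array 3 than in array 1. At least 1 log2 higher were 2.6% of them, and 5.7% were that much lower. Of 26 macrophage genes measured outside the set, 21 were higher in array 3 than in array 1. At least 1 log2 higher were 4, and the median was 0.42 log2. Of the 1178 background receptor genes 921 were higher and 126 at least 1 log2 higher, with a median of 0.32 log2. The receptor subunits Csf2ra and Csf2rb measured 7.49, 7.49 and 8.16 log2 and 5.62, 5.62 and 5.82, and Gpr34, a lysophospholipid receptor of microglia, 4.60, 4.60 and 5.34. The limma level test put 9 of the 26 above 100 and 11 below, where 41.6% of all genes were above and 41.6% below. Of 15 chemokine, cytokine and receptor genes 4 were at least 1 log2 higher in array 3. The inflammatory chemokine Ccl3 was at 6.08, 6.92 and 8.01 log2, while Ccl2 (6.92) and Ccl4 (6.02) each had the same value in all arrays. Of 25 leukocyte signalling genes 3 were at least 1 log2 higher and 1 was that much lower, with a median difference of 0.02 log2, and the kinase Syk had the same value of 6.35 in all arrays. Of 12 pattern recognition genes 2 were at least 1 log2 higher, and of 4 other genes of the phagocyte oxidase none was, while Cyba, the partner subunit of Cybb, was lower at 8.49, 7.77 and 7.42. Csf1 and Il34, the ligands of Csf1r, were at 6.56, 6.56 and 6.79 and at 6.41, 6.42 and 7.02 log2.

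Genes of other leukocytes were mostly low, where 41.6% of all named genes were below 100 by the limma test. Of 10 monocyte genes 8 were below 100 by the limma test, among them Ccr2, the receptor of blood monocytes, at 4.56, 4.78 and 4.78 log2 and the integrin Itgam at 4.78, 4.78 and 5.06, while the fractalkine receptor Cx3cr1, shared by monocytes and macrophages, was above at 7.48, 7.97 and 8.36. All 6 measured MHC class II genes were below, with H2-Aa at 4.82, 4.82 and 5.43 log2. All 8 mast cell genes and 9 of 13 neutrophil genes were below, with S100a8 at 4.43, 4.43 and 5.08 and S100a9 at 5.18, 5.18 and 6.64. Of the lymphocyte lists 5 of 7 T cell, 4 of 5 B cell and 3 of 5 NK cell genes were below. These lists are short, and whether such cells were present was not tested. Medians of array 3 minus array 1 ran from 0.07 (mast cell) to 0.64 log2 (NK cell) over these lists. Only S100a9 of all these genes was at least 1 log2 higher in array 3 (2.6% of all named genes). Csf3r and Thy1 (named after their values were seen) were at least 1 log2 lower (5.7% of all named genes). The receptor genes taken as background had a median difference of 0.32 log2.

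**Figure D4:**
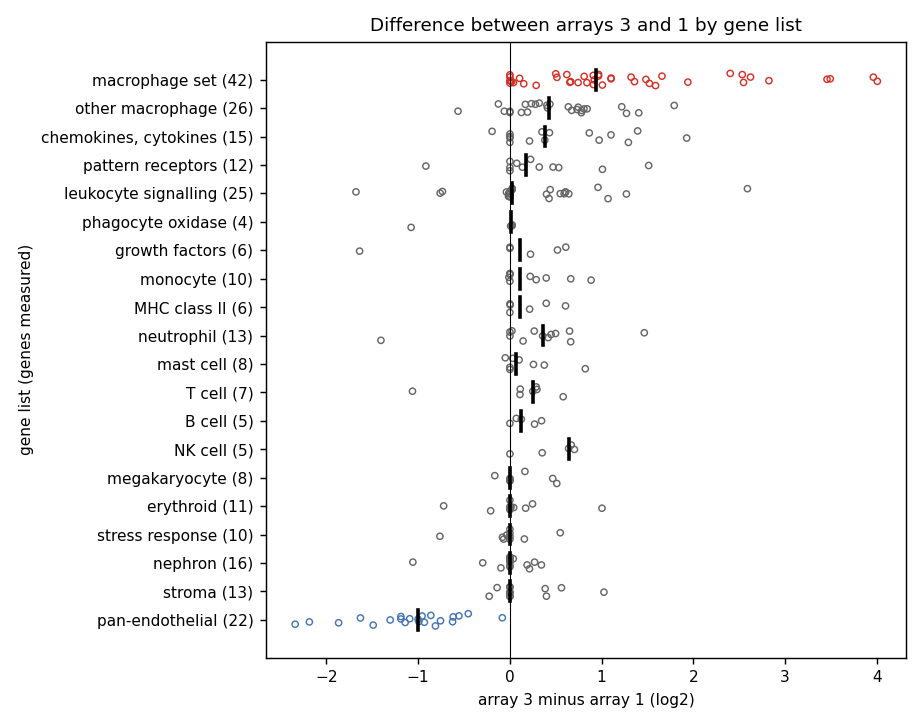
Array 3 minus array 1 (log2) for each measured gene (open circles) and its median (bar) in the macrophage set and in 19 lists of other genes, with the number measured in brackets. The macrophage median is 0.94, that of other macrophage genes 0.42 and the pan-endothelial median -0.997. Lists of nephron, stroma, megakaryocyte and erythroid genes have medians of 0.00, and many of their genes have exactly equal values in all 3 arrays.

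Lists of kidney cells, red cells and stress genes had medians at 0. The median of array 3 minus array 1 was 0.00 log2 for 16 nephron and ureteric bud genes, 13 stromal genes, 11 erythroid genes and 10 genes of the stress response, with 0, 1, 1 and 0 genes at least 1 log2 higher (2.6% of all genes). In 7, 7, 4 and 4 of these genes all 3 arrays had exactly equal values. A median of 0.00 thus rests in part on ties and is not read as an absence of difference. The 22 pan-endothelial genes had medians of 9.96, 9.77 and 8.78 log2, and 18 of them were above 100 by the limma test (41.6% of all genes). In 11 of the 22 array 3 was at least 1 log2 below array 1 (5.7% of all genes). The 42 macrophage genes had medians of 6.38, 7.00 and 7.26 log2. What part the lower endothelial signal, the narrower spread of array 3 or the makeup of each pool had in the macrophage values was not tested.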

How the data were processed

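Gene expression was measured in 3 pools of Tie2-GFP sorted kidney endothelial cells, 1 array each. The deposited values are log2 signals for 35557 probe sets, for which the authors' notes list Affymetrix Expression Console. Its version, the way probes were summarized and the array's genome build are not given in the sources used here. Methods of the study describe RMA normalization in GeneSpring and a low-signal filter of 100 in 3 samples. Array data carry no read depth, and their number limits the precision.

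No further normalization was applied to the deposited log2 values. Of the probe sets, 21789 had exactly 1 symbol, 1621 had several and were not named, and 12147 were unnamed. Symbols were updated through gene identifiers of RefSeq (GRCm38.p6), with 21698 matched, and a gene's value was the mean of its probe sets. Level tests used limma 3.58.1 in R 4.3.3 with an intercept-only fit and eBayes, a threshold of 0.05, and a gene was above 100 if any probe set was and below only if all were. The test was checked on simulated data for calls above the level only. No simulated spread was under the median spread and the values held no ties. The check therefore does not cover calls below or calls that rest on tied values. Other calculations used Python 3.11.15. The members and all lists were chosen with earlier results of these data known. All 42 genes are named, with Tek, up to 3 genes of each other list in list order and the 10 leading genes of mean at least 100, and others are marked. Of 242 genes on 19 other lists 219 were measured, and Rac2, Clec7a and Ccl2 stand on 2 lists each. Alternatives covered scaling between arrays, probe sets of a gene, the level, the size of difference, low values, the spread, ties and leaving out each array.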

Additional observations from a re-analysis of the deposited data

How the results depend on the processing

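The direction of no macrophage gene called at least 1 log2 apart was reversed by quantile normalization, median centring, scaling by median and MAD, or the highest probe set of a gene. Macrophage genes higher in array 3 than in array 1 numbered 35 with median centring and 38 otherwise, and the receptor median shifted to 0.01 log2 under quantile normalization and -0.05 under MAD scaling, against 0.32. Sirpa was at 0.40 and 0.63 and Cd163 at -0.31 and -0.39 under these 2 settings, against 0.00 for each. The median difference between arrays 3 and 1 was 0.87, 0.89 and 0.85 log2 under the first 3, and 1.55 when low genes (mean under 100) were dropped (0.84 for arrays 3 and 2, 0.86 for arrays 2 and 1). The count at least 1 log2 higher in array 3 than in array 2 was 13 under quantile normalization and under MAD scaling, against 8. With a size of 0.58 log2, 30 genes were higher in array 3 than in array 1 and 17 than in array 2, and with 2 log2, 9 and 1, with 2 in array 2 over array 1. At a level of 50, 26 genes were above, 1 below and 35 over it in all arrays, and at 200, 1, 22 and 4. A spread pooled over all probe sets placed 16 above. Testing only probe sets with a mean of at least 50, which drops low genes, placed 3 below. Leaving out each array in turn gave 5 to 7 above, 3 to 11 below and 15 to 26 over 100 in the remaining arrays. Without array 1, 3 were below and 26 over 100, without array 2, 4 were below, and without array 3, 11. Restricting to genes with 3 different values and pattern steps of 0.3 and 0.75 log2 were added after seeing the data. At 0.75 log2, 20 genes reached neither step, and 5 had array 2 a step above array 1 and array 3 within a step of array 2. At 0.3 log2, 6 genes had that pattern and 14 were higher at both steps. No paired analysis was possible because all arrays belong to 1 group. The causes of these changes were not tested except where stated. The 3 arrays of 1 group limit every value here, and calls near the level rest on small spreads, some of them with exactly equal values.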

Other observations

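Values of other MS4A genes are given here, chosen after they were seen. Ms4a6b measured 5.78, 8.83 and 7.86 log2 in arrays 1, 2 and 3, and Ms4a6d 6.67, 7.45 and 8.26. Ms4a6b was highest in array 2, as were Adgre1, Cd68 and Ly86.

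Of the 26 macrophage genes outside the set, those at least 1 log2 higher in array 3 than in array 1 (named after their values were seen) were Pilra, an inhibitory receptor of myeloid cells, at 5.33, 5.40 and 7.12 log2, Clec4n, the fungal receptor Dectin-2, at 5.55, 6.80 and 6.95, Apoe, a lipid carrier, at 8.80, 9.27 and 10.07, and Cd180, at 6.28, 6.31 and 7.50. Clec4n stood apart in array 1, and Pilra and Cd180 in array 3.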
